A study of Mus musculus with 6 samples.

Results

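The mRNAs of 39 complement and coagulation factors were measured in the livers of pregnant mice. The 39 genes were chosen by name, as components of the classical, lectin, alternative and terminal complement pathways and of the clotting and fibrinolytic system. Each of the 39 names matched 1 of the 56691 gene rows of the deposited table. RNA-seq libraries of polyadenylated RNA were made from 6 dams, 3 KPF and 3 WPF. KPF dams were hepatocyte-specific *Chrebp* knockout mice (labelled hChrebp-KO), carrying floxed *Chrebp* alleles and an Alb-Cre transgene, which drives the recombinase in hepatocytes. WPF dams were *Chrebp* flox/flox mice without Cre according to the methods of the study, and the labels call them WT. All dams were mated with *Chrebp* flox/flox males, received a high-fructose diet (HFrD) once pregnant, and were sampled late in gestation. Thus both groups shared the floxed alleles, the pregnancy and the diet, no chow-fed or non-pregnant group was analysed here, and the age of the dams is not given in the sources used here.

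Complement and coagulation are cascades of plasma proteins, many of them zymogens activated by limited proteolysis by the step before. Complement converges from the classical, lectin and alternative pathways on C3, whose cleavage leads to opsonization and to assembly of the membrane attack complex. Coagulation starts either from the contact system or from tissue factor with factor VII, converges on factor X, and ends with thrombin cutting fibrinogen to fibrin, which plasmin later dissolves. Hepatocytes secrete most of these proteins. Gestation raises the plasma level of several clotting factors. ChREBP is the glucose-responsive transcription factor that drives glycolytic and lipogenic genes in the liver. The comparison asks which liver mRNAs of these secreted products differ between the KPF and WPF genotypes.

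The libraries held 10694496 to 14496630 counted reads, every KPF library being smaller than every WPF library. *Mlxipl*, the gene of ChREBP, gave 179.4, 699.6 and 848.7 CPM in the KPF libraries (replicates 1, 2 and 3, in this order throughout). The WPF libraries (replicates 2, 3 and 4) gave 961.0, 1260 and 879.1 CPM. CPM here is the read count scaled to a common library size with edgeR's TMM factor. The groups did not overlap, although KPF replicate 3 came close to WPF replicate 4 (log2 fold change -0.84, standard error (SE) 0.53, adjusted p = 0.584, edgeR), and the reads cover the whole gene rather than the deleted exon. The hepatocyte markers were abundant in every library, at a summed 102300 to 203300 CPM. KPF replicate 2 stood apart, since 8 of 8 striated muscle markers summed to 3906 CPM there and to 3.33 to 14.2 CPM in the others. WPF replicate 4 also stood apart, with 45.7% of its reads in its 50 largest genes against 50.2% to 58.5% in the others. Collagen and other stellate and fibroblast markers ran higher in KPF (342.2 to 941.3 CPM summed in KPF and 298.8 to 320.4 CPM in WPF, no marker at 0 in all libraries). Of 11 tested, 5 were higher at p under 0.05 (edgeR) and at least 1.5-fold, against 5.83% of all tested genes. Testing needed a mean of 1 FPKM, a level per length of the gene. In WPF *Reln* was at 0.73, 1.17 and 1.05 FPKM, *Col1a1* at 0.63, 1.1 and 0.48 and *Col1a2* at 0.8, 1.12 and 0.96. These called genes reached that mean only through KPF. One of the 5 was *Des*, a gene muscle also expresses, at 486.1 CPM in KPF replicate 2 and with overlapping groups. Without it the sums were 332.1 to 720.7 CPM in KPF and 291.5 to 310.8 CPM in WPF. Their part in the results below was not tested.

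Every factor of the set was expressed. Mean FPKM, a level per length of the gene, ran from 7.91 for *Pros1* to 1723 for *Vtn*, a 218-fold range, and the fewest reads of any member in any library were 82. *Vtn*, which encodes vitronectin, *Kng1* (kininogen, the bradykinin precursor) and *C3* (the central complement component) led the order in each library. *Pros1* (protein S), *C6*, *C8b* and *C2* had the lowest means. The members took 2.19% to 2.47% of the counted reads in KPF and 2.32% to 2.90% in WPF, so the groups overlapped in this share. In bulk liver, fewer cells of a type and less RNA per cell cannot be told apart.

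**Figure D1:**
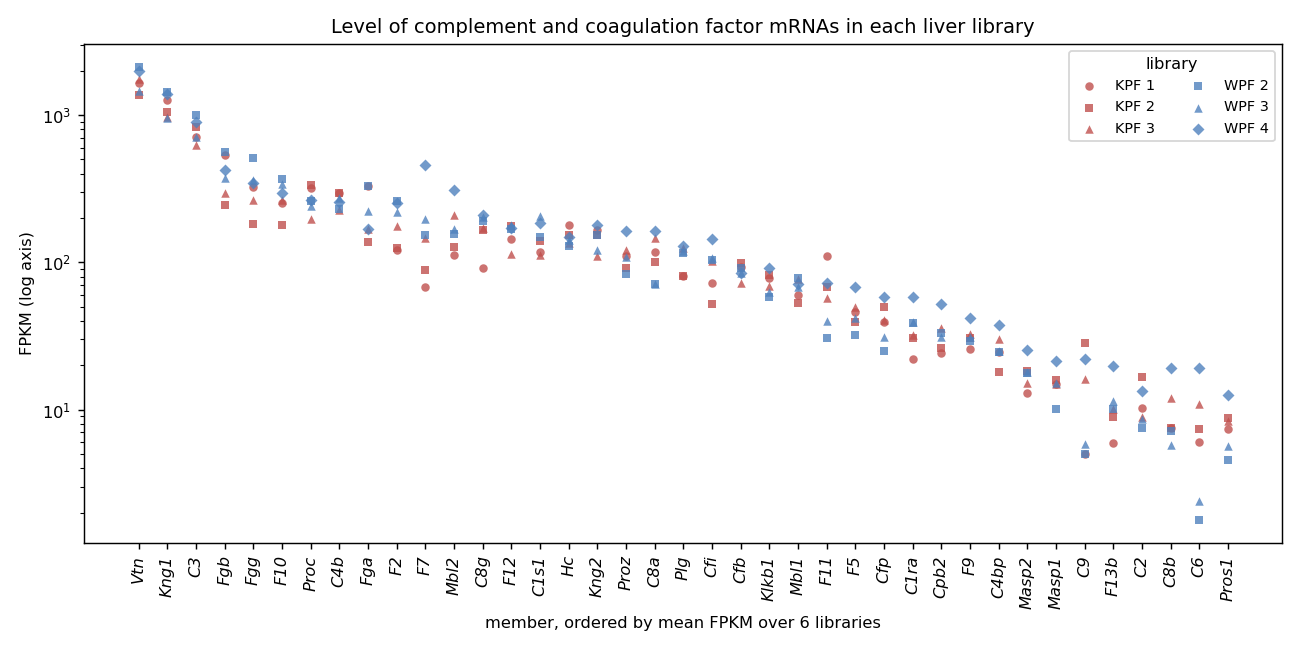
Level of each of the 39 members in each library, as FPKM on a log axis, ordered by the mean over 6 libraries; KPF is red and WPF blue, with a marker for each replicate. The order runs from *Vtn* (mean 1723 FPKM) to *Pros1* (7.91 FPKM), and the points of *F7*, *C9* and *C6* spread most widely.

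None of the 39 members differed between KPF and WPF at an adjusted p under 0.05, and their smallest adjusted p was 0.430 (edgeR). No gene of the 10866 tested passed this threshold either (0.0%), whereas DESeq2 put 156 genes past it, with 0 members among them. At an unadjusted p under 0.05, 2 members passed, or 5.13%, against 10.8% of all tested genes. With a change of at least 1.5-fold as well, *F11* was called higher in KPF (1 of 39, 2.56%, against 5.83% of all tested genes) and *F7* was called lower (1 of 39, 2.56%, against 3.98%). In 2 members, *F11* and *Hc*, the KPF libraries all lay above the WPF libraries, 5.13% against 7.55% of tested genes. In 4 members, *C1ra*, *C1s1*, *F2* and *F7*, the KPF libraries all lay below the WPF libraries, 10.3% against 8.15%. Each of these shares was below the background or near it. The shares without overlap were counted in CPM. In FPKM, *F11* and *Hc* overlapped, whereas *Cfi*, *C8g*, *F10* and *Fgg* joined the members with KPF below WPF. The matching share of all tested genes in FPKM was not computed. Without WPF replicate 4, 6 members were called higher and 0 lower, beside 628 and 535 of the 10866 tested genes. Without KPF replicate 2, 1 member was called higher and 0 lower, beside 550 and 487 of the tested genes. The median log2 fold change (KPF minus WPF) was -0.11 over the 39 members and 0.02 over all tested genes, with 16 members positive and 23 negative. Scaling by library totals in place of TMM moved the median of all genes to -0.12 and that of the members to -0.21.

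Precision differed among the members. The SE ran from 0.22 to 0.78 on the log2 scale, with a median of 0.29. The 95% interval lay within 2-fold in both directions for 20 of the 39 members. In 35 members the estimate itself was within 1.5-fold. The widest intervals of members that were not called reached from -1.50 to 2.39.

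**Figure D2:**
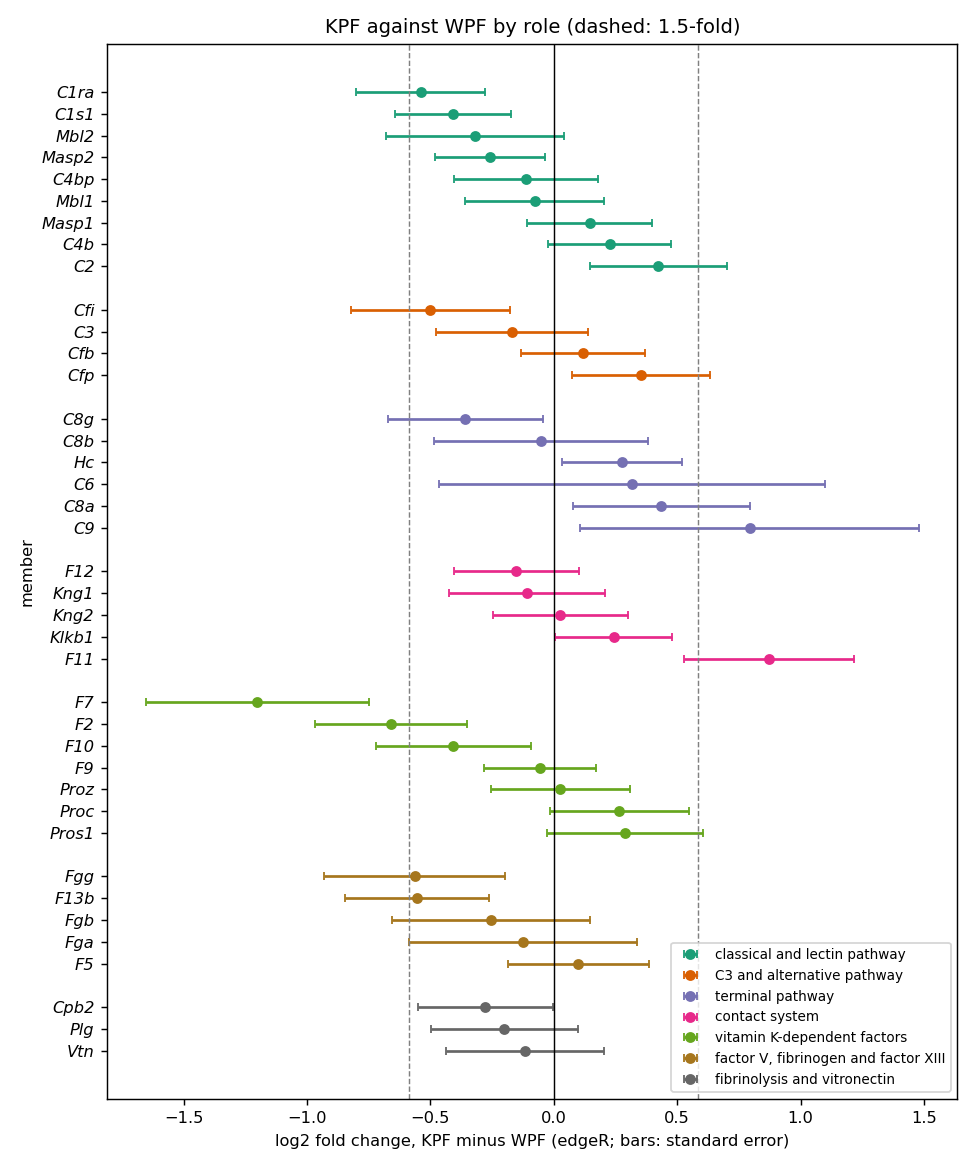
Log2 fold change of each member, KPF minus WPF, with its SE from edgeR, grouped and coloured by role; dashed lines mark 1.5-fold. *F7* (-1.20) and *F11* (0.87) lie farthest from 0, and the widest bars belong to *C6* and *C9*.

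*F7* encodes factor VII, the protease that starts clotting when it meets tissue factor. It (ENSMUSG00000031443, chromosome 8, 13076034 to 13085809, plus strand, GRCm39) gave 128.7, 167.0 and 303.5 CPM in the KPF libraries. The WPF libraries gave 321.4, 339.5 and 717.3 CPM. KPF replicate 3 lay just below WPF replicate 2, and WPF replicate 4 alone was above all others by a wide margin. The KPF mean was 199.7 ± 91.9 CPM and the WPF mean 459.4 ± 223.6 CPM (SD, n = 3 each). This was a difference of -1.20 on the log2 scale (SE 0.45, adjusted p = 0.430, edgeR), and the exact two-sided permutation test gave p = 0.1, the smallest that 3 dams against 3 allow. Without WPF replicate 4 the log2 fold change was -0.74 and was not called, and without KPF replicates 1 and 2 it was -0.97 and -1.10, also not called.

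*F11* encodes factor XI, the contact-system protease that activates factor IX. It (ENSMUSG00000031645, chromosome 8, 45694211 to 45715068, minus strand, GRCm39) gave 250, 152.6 and 142.4 CPM across the KPF libraries and 77.4, 82.0 and 138.6 CPM across the WPF libraries. KPF replicate 3 and WPF replicate 4 were nearly level, and KPF replicate 1 stood highest. On the FPKM scale, which does not use the TMM factor, KPF replicate 3 (57.2 FPKM) lay below WPF replicate 4 (72.9 FPKM) and the groups overlapped. The KPF mean was 181.6 ± 59.4 CPM and the WPF mean 99.3 ± 34.1 CPM (SD, n = 3 each), a difference of 0.87 on the log2 scale (SE 0.34, adjusted p = 0.445, edgeR). The call was lost without KPF replicate 1 (0.57), WPF replicate 2 (0.72) or WPF replicate 3 (0.75), and with library totals (0.71) or limma on log2(FPKM + 1) (0.74). It held without KPF replicate 2 (0.98) and without WPF replicate 4 (1.18).

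The 250 bases before the annotated start of these genes are given because *F7* and *F11* were the called members. The sequences are from RefSeq, build GRCm38.p6, at chr8:13025784-13026033 on the plus strand for *F7* and chr8:45262032-45262281 on the minus strand for *F11*, written 5′ to 3′. No capitals appear because none of the 3 motifs searched was found in either.
F7 promoter: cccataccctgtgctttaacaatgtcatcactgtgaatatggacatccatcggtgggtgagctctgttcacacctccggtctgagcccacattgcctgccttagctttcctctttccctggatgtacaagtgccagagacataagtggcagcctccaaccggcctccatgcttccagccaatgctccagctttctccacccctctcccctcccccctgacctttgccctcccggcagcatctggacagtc
F11 promoter: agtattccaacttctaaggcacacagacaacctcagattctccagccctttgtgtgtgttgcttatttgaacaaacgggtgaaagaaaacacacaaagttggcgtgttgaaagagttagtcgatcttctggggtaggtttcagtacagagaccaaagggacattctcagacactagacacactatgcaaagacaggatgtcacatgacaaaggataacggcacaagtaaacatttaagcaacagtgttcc

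The motifs were searched on both strands in the promoters of the 31 members with a RefSeq entry, the first entry where there were several, and in 32851 promoters of all genes. The E-box CACGTG, the palindrome shared by basic helix-loop-helix factors such as USF, MYC and the ChREBP and Mlx pair, was in 0 of the 31 members and in 6.02% of all promoters. The STAT motif TTCNNNGAA was in 6 members (19.4%, against 7.02%), *C8a*, *F9*, *Fga*, *Fgb*, *Masp2* and *Pros1*. CAAAGTCCA, a motif of HNF4A, was in 0 members and 0.384% of all promoters. These are matches of letters in a short window and neither sites nor causes. Only these letters were matched, so 0 matches do not show that a promoter lacks an element bound by ChREBP or HNF4A. CAAAGTCCA was so rare among all promoters that 0 of the 31 members says little. *C2*, *C4b*, *Masp1*, *Cfb*, *Cfi*, *Kng1*, *Proc* and *Plg* were not searched.

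**Figure D3:**
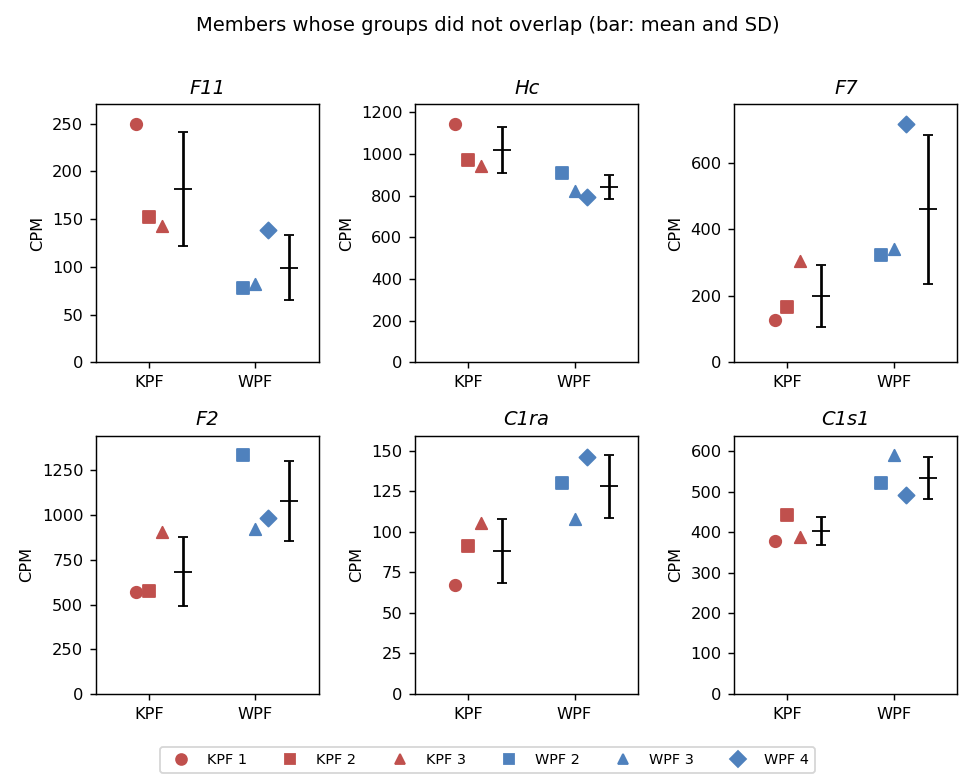
CPM in each library for the 6 members whose groups did not overlap on this scale, with the mean and SD of each group as a bar. Axes start at 0. KPF is above WPF in *F11* and *Hc* and below it in *F7*, *F2*, *C1ra* and *C1s1*, and the nearest libraries of the groups are close in *F11* (142.4 and 138.6 CPM) and *C1ra* (105.7 and 107.7 CPM).

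Of the other vitamin K-dependent factors, *F2* was the nearest to a call. *F2*, which encodes prothrombin, gave 569.4, 575.0 and 906.6 CPM across the KPF libraries and 1336, 922.9 and 981.3 CPM across the WPF libraries. KPF replicate 3 came close to WPF replicate 3, and the groups did not overlap. They differed by -0.66 on the log2 scale (SE 0.31, adjusted p = 0.482, edgeR; exact two-sided permutation p = 0.1). It was called without KPF replicate 3 (-0.92) and with library totals (-0.78), DESeq2 (-0.66) and limma on log2(FPKM + 1) (-0.80). *F10*, which encodes factor X and had the highest mean FPKM among these proteases (282.6), gave 706.7, 488.5 and 806.1 CPM across the KPF libraries and 1120, 855.3 and 679.9 CPM across the WPF libraries. The groups overlapped in CPM and the log2 fold change was -0.41 (SE 0.31). In FPKM they did not, with 254.0, 177.9 and 265.6 in KPF and 365.4, 339.7 and 293.3 in WPF. *F9* (factor IX) differed by -0.06 on the log2 scale, with a 95% interval from -0.59 to 0.47. For the anticoagulant proteins C and S and protein Z, the log2 fold changes were 0.27 (*Proc*), 0.29 (*Pros1*) and 0.03 (*Proz*). *Pros1* was called without WPF replicate 4 (0.72), and *Proz* changed sign when library totals were used (-0.14).

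The ratio of *F7* to *F9* in FPKM, 2 factors of the same protease family, was 2.64, 2.90 and 4.49 in KPF and 5.25, 6.35 and 10.8 in WPF (exact two-sided permutation p = 0.1). A ratio within a library does not depend on its scaling. The *F7* to *F9* ratio rests on the same *F7* values as the call of *F7*. *F9* itself varied little (71.5 to 99.4 CPM over the libraries), so this ratio is no separate evidence. The ratio of *F11* to *F7* was 1.61, 0.758 and 0.389 in KPF and 0.2, 0.2 and 0.16 in WPF, also without overlap (exact permutation p = 0.1). In CPM every KPF library lay above every WPF library for *F11* and below every one for *F7*. The separation of this ratio and its p were therefore fixed in advance and add nothing to the calls. Both ratios were chosen after the values of the genes had been seen. *F7*, *F10* and *Proz* are neighbours on chromosome 8, with starts 11274 and 23606 bases apart in the deposited coordinates. The *F7* to *F10* ratio ran from 0.267 to 0.553 in KPF and from 0.422 to 1.55 in WPF, so the groups overlapped and the highest value was again WPF replicate 4.

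Among the contact factors, *Kng1* had the highest mean FPKM. It gave 4184, 3398 and 3497 CPM across the KPF libraries and 5247, 2869 and 3831 CPM across the WPF libraries. WPF held both the highest and the lowest library, and the log2 fold change was -0.11 (SE 0.32). *Kng2*, its neighbour with 91.1% transcript identity, had a log2 fold change of 0.03, and of -0.08 with library totals. The *Kng1* to *Kng2* FPKM ratio was 6.80 to 9.37 over the 6 libraries, and reads shared by such close copies make each value uncertain. *Klkb1*, which encodes plasma prekallikrein, lies 25515 bases from *F11* by their starts and had a log2 fold change of 0.24 (SE 0.24). The *F11* to *Klkb1* FPKM ratio was 1.40, 0.831 and 0.831 in KPF and 0.531, 0.627 and 0.795 in WPF, with KPF replicates 2 and 3 close to WPF replicate 4. This ratio rests on the same *F11* values as its call. For *F12*, factor XII, the log2 fold change was -0.15.

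For both protease subunits of the C1 complex, the KPF libraries lay below the WPF libraries. *C1ra*, the C1r subunit, gave 67.0, 91.5 and 105.7 CPM across the KPF libraries and 130, 107.7 and 146.2 CPM across the WPF libraries. *C1s1*, the protease it activates, gave 377.1, 441.7 and 387.5 CPM across the KPF libraries and 520.3, 590.5 and 491.0 CPM across the WPF libraries. *C1s1* had the smallest within-group SD of all members, 0.13 on the log2(CPM + 1) scale. Neither passed the test, with log2 fold changes of -0.54 (SE 0.26, adjusted p = 0.495) and -0.41 (SE 0.23, adjusted p = 0.554) from edgeR. *C1ra* was called without KPF replicate 3 (-0.69) and with library totals (-0.69) or limma on log2(FPKM + 1) (-0.66), whereas *C1s1* was called under no alternative. The genes start 17940 bases apart on chromosome 6. *C1rb* and *C1s2*, copies with 97.9% and 95.9% identity to the transcripts of *C1ra* and *C1s1*, were nearly uncounted, at mean FPKM of 0.115 and 0.075.

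*C4b*, the substrate of C1s, had the highest mean FPKM of the classical and lectin genes and varied little. It gave 1706, 1704 and 1426 CPM across the KPF libraries and 1465, 1433 and 1237 CPM across the WPF libraries, differing by 0.23 on the log2 scale (SE 0.25) with overlapping groups. On the same scale *C2*, which joins C4b in the convertase, differed by 0.42, and *C4bp*, which dismantles that convertase, by -0.11. The mannose-binding lectins *Mbl1* and *Mbl2*, which recognize sugars on microbes, had log2 fold changes of -0.08 and -0.32. Those of their proteases *Masp1* and *Masp2* were 0.14 (-0.02 with library totals) and -0.26. *Masp2* overlaps *Tardbp* on the opposite strand, and *Tardbp* held 278% as many reads. The strand setting of the libraries is not given in the sources used here, so reads of the pair cannot be told apart with certainty. Other genes overlap *C2*, *C8g*, *Cfi*, *F5* and *Masp1*, each holding at most 14.1% as many reads as the member, with 2 counted genes over *Masp1* (13% and 9.9%) and over *C2* (11% and 8.18%). *Gm20547*, on the strand of *C2* and *Cfb* and identical to 39.8% and 81.7% of their transcripts, held 0 reads. Reads that fit more than 1 of these genes may not have been counted, so the levels of *C2* and *Cfb* are uncertain. None of the 9 classical and lectin genes passed the test, and each estimate was within 1.5-fold.

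*C3* was the most abundant complement mRNA. It gave 3723, 4311 and 3567 CPM across the KPF libraries and 5761, 3382 and 3904 CPM across the WPF libraries. WPF replicate 2 was above the other 5 libraries, which overlapped (log2 fold change -0.17, SE 0.31). *Cfb*, which encodes factor B of the alternative convertase, had a log2 fold change of 0.12, and *Cfi*, the protease that inactivates C3b, of -0.50. *Cfp*, which encodes properdin, the stabilizer of that convertase and a product largely of myeloid cells, had one of 0.35. It was called without WPF replicate 4 (0.66). The Kupffer cell and macrophage markers beside it (9 of 10 tested, none called) summed to 167.4 to 239.2 CPM in KPF and 165.6 to 316.9 CPM in WPF. Neutrophil markers were low, *Csf3r* at 2.51 to 8.78 CPM and *S100a8* at 0.96 to 3.45 CPM, against 48.7 to 86.8 CPM for *Cfp*. The part of either cell type in *Cfp* was not tested. *Cfi* was called without KPF replicate 3 (-0.84). Its groups overlapped in CPM, but in FPKM the KPF libraries (51.8 to 101.4) lay below the WPF libraries (103.4 to 143.5). *C4b*, *Cfb* and *C2* are neighbours in the complement cluster on chromosome 17.

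The members with the widest spread within groups, *C6* and *C9*, belong to the terminal pathway, which builds the membrane attack complex on the cleaved C5. *Hc*, which encodes C5, was steady and high, with 1146, 968.9 and 940.1 CPM across the KPF libraries and 907.7, 824.6 and 793.3 CPM across the WPF libraries. Every KPF library was above every WPF library, by little (log2 fold change 0.27, SE 0.24, adjusted p = 0.697, edgeR; exact two-sided permutation p = 0.1), and on the FPKM scale KPF replicate 3 (135.0) lay below WPF replicates 3 (142.8) and 4 (149.2). *C6* gave 22, 26.4 and 42.8 CPM across the KPF libraries and 7.09, 7.80 and 58.0 CPM across the WPF libraries. WPF replicates 2 and 3 were the lowest libraries and WPF replicate 4 was the highest, so that the highest and lowest values differed 8.19-fold. *C9*, the pore-forming component, gave 13, 73.1 and 46.0 CPM across the KPF libraries and 14.4, 13.8 and 47.8 CPM across the WPF libraries. Here KPF replicate 1 sat with the low WPF libraries. *C6* and *C9* were picked out after their values were seen.

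The log2 fold changes of *C6* and *C9* were 0.32 (SE 0.78) and 0.79 (SE 0.69), and neither passed the test. Without WPF replicate 4 they were 2.02 (unadjusted p = 0.000721, adjusted p = 0.16, edgeR) and 1.63, both called. That library was the high WPF library of both genes, so leaving it out favoured a small p. These calls are therefore no evidence of a difference between the groups. Without WPF replicates 2 and 3 the value for *C6* was -0.12 and -0.10. Within-group SD on the log2(CPM + 1) scale was 1.20 for *C6* and 1.12 for *C9*, against a median of 0.34 over the members and of 0.31 over the 4458 tested genes of the same range of level. The C8 subunits *C8a* and *C8b*, neighbours on chromosome 4, had log2 fold changes of 0.44 and -0.05, and both were high in KPF replicate 3 and WPF replicate 4. *C8a* was called without WPF replicate 4 (0.81). *C8g*, on another chromosome and the highest terminal component in mean FPKM (172.0), gave 138.9, 250.3 and 284.3 CPM across the KPF libraries and 318.4, 280.9 and 264.0 CPM across the WPF libraries. Its low library was KPF replicate 1 (log2 fold change -0.36, SE 0.31). In FPKM its KPF libraries (91.3 to 171.3) all lay below its WPF libraries (190.0 to 208.3).

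**Figure D4:**
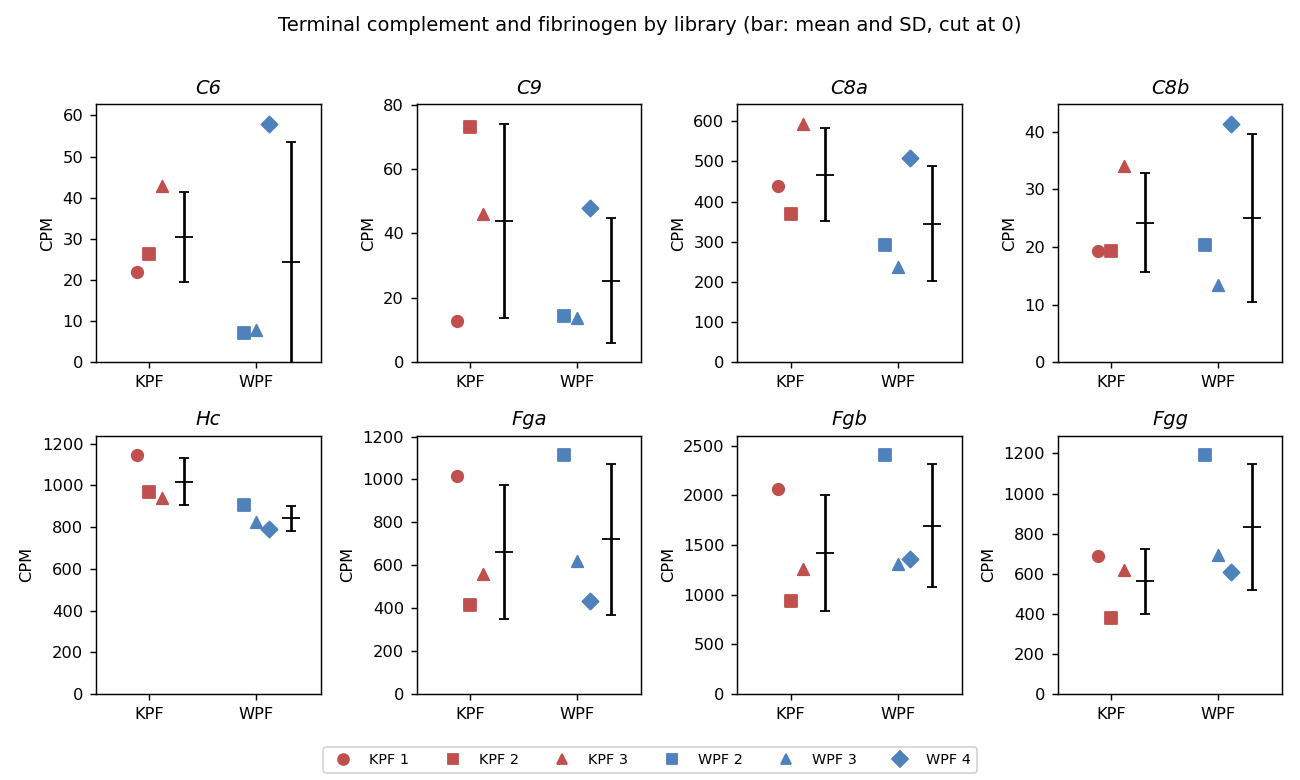
CPM in each library for the terminal complement genes *C6*, *C9*, *C8a*, *C8b* and *Hc* and the fibrinogen chains *Fga*, *Fgb* and *Fgg*, with group mean and SD as bars, cut at 0; every axis starts at 0. *C6* and *C9* spread widely within groups, *Hc* does not, and KPF replicate 1 and WPF replicate 2 are the 2 highest libraries for *Fga* and *Fgb*.

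The 3 fibrinogen chains, each needed for the secreted hexamer, had the same highest and the same lowest library in CPM. *Fgb*, the beta chain, gave 2062, 934.5 and 1257 CPM across the KPF libraries and 2405, 1309 and 1363 CPM across the WPF libraries. *Fga*, the alpha chain, gave 1015, 413.9 and 559.4 CPM across the KPF libraries and 1114, 619.6 and 432.5 CPM across the WPF libraries. *Fgg*, the gamma chain, gave 690.6, 380.4 and 618.2 CPM across the KPF libraries and 1192, 695.0 and 610.6 CPM across the WPF libraries. WPF replicate 2 was the highest library for each chain, although in FPKM KPF replicate 1 (330.9) lay just above it (329.9) for *Fga*. KPF replicate 2 was the lowest for each. For *Fgg* the groups overlapped in CPM, but in FPKM KPF (180.8 to 323.9) lay below WPF (343.7 to 507.3). Log2 fold changes were -0.26 (SE 0.40), -0.12 (SE 0.46) and -0.56 (SE 0.37) for *Fgb*, *Fga* and *Fgg*. The *Fgb* to *Fga* FPKM ratio was 1.61 to 1.78 in 5 libraries and 2.49 in WPF replicate 4.

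The 3 genes lie side by side on chromosome 3, with starts 18352 and 14065 bases apart. Their upstream 250 bases are given because the chains shared their highest and lowest libraries in CPM (RefSeq, GRCm38.p6; *Fga* chr3:83025903-83026152, plus strand; *Fgb* chr3:83049864-83050113, minus strand; *Fgg* chr3:83007474-83007723, plus strand). Capitals mark matches, on either strand, to the STAT motif named above. In *Fga* the match lies 234 to 226 bases before the start, and in *Fgb* 162 to 154 bases before it. *Fgg* held none of the 3 motifs.
Fga promoter: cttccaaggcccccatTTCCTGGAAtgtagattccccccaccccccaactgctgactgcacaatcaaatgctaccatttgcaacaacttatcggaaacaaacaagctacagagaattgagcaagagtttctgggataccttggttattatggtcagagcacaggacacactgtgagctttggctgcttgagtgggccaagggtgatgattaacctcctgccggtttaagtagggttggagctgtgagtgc
Fgb promoter: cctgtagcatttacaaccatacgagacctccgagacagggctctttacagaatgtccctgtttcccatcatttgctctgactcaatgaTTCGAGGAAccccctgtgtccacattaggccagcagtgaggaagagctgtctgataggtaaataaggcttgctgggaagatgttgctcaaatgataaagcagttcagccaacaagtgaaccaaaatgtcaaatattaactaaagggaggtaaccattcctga
Fgg promoter: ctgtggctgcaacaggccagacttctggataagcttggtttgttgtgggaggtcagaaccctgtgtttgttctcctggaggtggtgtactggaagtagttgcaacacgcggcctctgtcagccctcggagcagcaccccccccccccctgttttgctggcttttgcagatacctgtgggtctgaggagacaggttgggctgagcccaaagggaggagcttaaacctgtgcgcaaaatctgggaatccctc

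*F5*, the cofactor of activated factor X, differed by 0.10 on the log2 scale (-0.07 with library totals), and *F13b*, the carrier subunit of the fibrin cross-linking factor XIII, by -0.55 (SE 0.29). *F13b* was called without KPF replicate 3 (-0.78). *Vtn*, the most abundant member, gave 3412, 2806 and 3930 CPM across the KPF libraries and 4849, 2710 and 3440 CPM across the WPF libraries. WPF held the highest and the lowest library, and the log2 fold change was -0.12 (SE 0.32). The log2 fold changes of *Plg*, which encodes plasminogen, and *Cpb2*, which encodes the carboxypeptidase that slows fibrinolysis, were -0.20 and -0.28, and neither passed the test.

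Over the whole set, neither genotype held all of the high or all of the low libraries. WPF replicates 2 and 4 were each the highest library for 13 of the 39 members, and KPF replicate 1 was the lowest for 11. Median deviations of the members from their 6-library means on the log2(CPM + 1) scale were -0.02, -0.07 and 0.12 in KPF and 0.17, -0.16 and 0.12 in WPF. The highest of these was WPF replicate 2, the library that also had the most reads in hepatocyte markers (203300 CPM, against 102300 to 127000 CPM in the others). Of this *Alb* alone gave 148700 CPM, and without *Alb* the sum was 54610 CPM against 34090 to 38370 CPM. Not every marker was high in it, *Tat* being at 303.6 CPM against 221.4 to 981.0 CPM in the others, and the part of these markers in the members' values was not tested. The lowest was WPF replicate 3, so the extremes belonged to the same genotype.

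**Figure D5:**
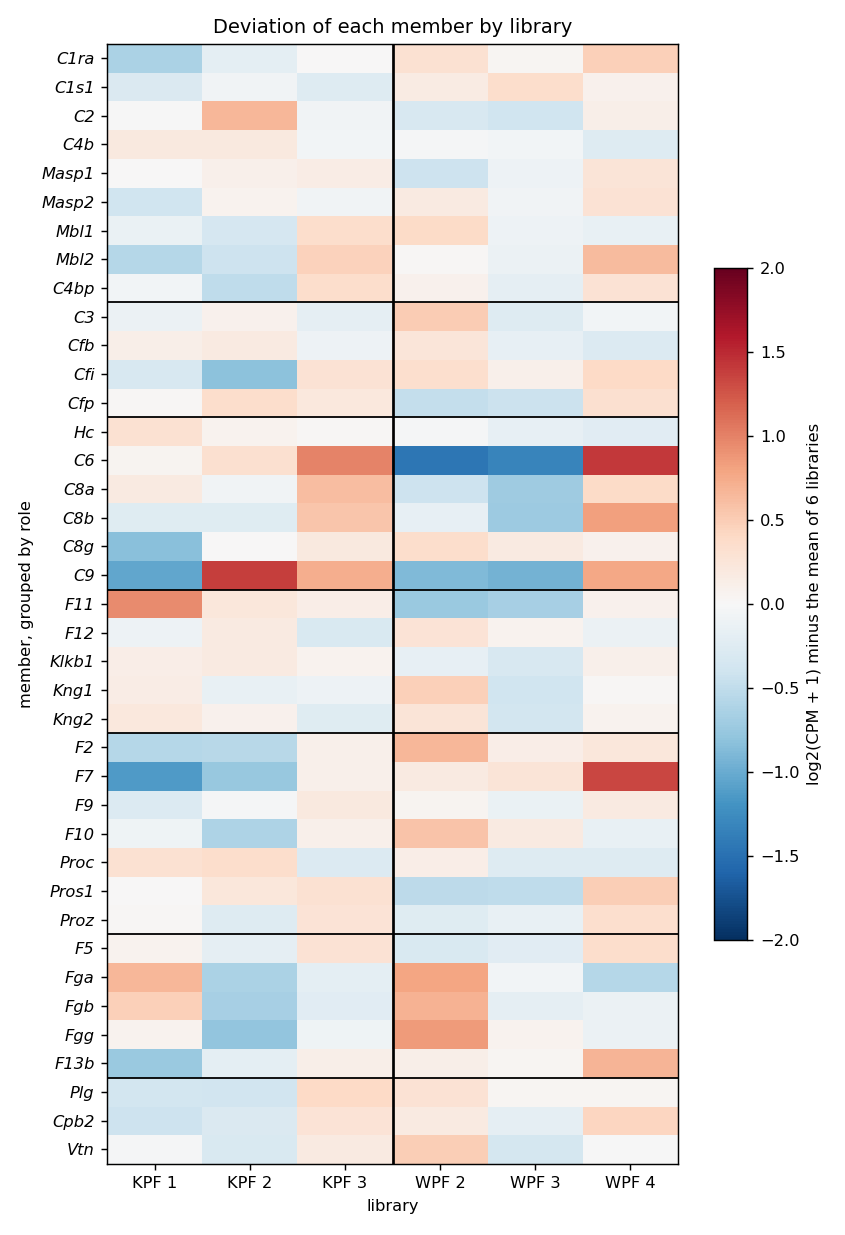
Deviation of log2(CPM + 1) from the 6-library mean for each member (rows, by role) in each library (columns); red is above the mean and blue below, from -2 to 2. Columns of 1 genotype differ from each other, with *C6*, *C9* and *F7* the strongest cells and the fibrinogen chains high together in WPF replicate 2.

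Genes of the same pathways outside the set were also counted. Of 25 other complement genes, such as C1q chains, receptors and surface regulators, 17 were tested, 1 was called higher (5.88%, against 5.83% of all tested genes) and 0 lower, with a median log2 fold change of 0.09. The called gene was *Cfd*, the factor D protease that cleaves factor B and is known from adipose tissue. It gave 4.19, 17.2 and 1.25 CPM across the KPF libraries and 0, 0.14 and 0 CPM across the WPF libraries. At 0, 0.17 and 0 FPKM in WPF, *Cfd* reached the mean of 1 FPKM needed for testing only through KPF. A call in this direction was therefore the only one possible, and the share of 5.88% is not an even comparison. The KPF libraries other than replicate 2 were also above WPF. In all there were 252 reads in KPF against 2 in WPF, a ratio of 168 with a 95% interval from 46.0 to 1390 that covers counting error only (adjusted p = 0.415, edgeR). KPF replicate 2 gave 195 of these reads. Without it, an alternative chosen after seeing the data, the ratio was 58.5 (57 reads against 2, 95% interval 15.5 to 494). The adipocyte and mesothelium markers (2 of 7 tested, both called higher, against 5.83% of all tested genes) summed to 47.1, 49.8 and 10.5 CPM in the same KPF libraries. In WPF they summed to 7.14 to 13.5 CPM, with *Lep* at 0 in every library. *Msln*, 1 of the 2 called, was at 0.23, 0.77 and 0.2 FPKM in WPF and was likewise tested only through KPF. The other, *Fabp4*, made up most of the sums. It gave 34.7, 36.1 and 7.69 CPM in KPF and 11.8, 7.87 and 4.86 CPM in WPF. The groups overlapped in both *Msln* and *Fabp4*. The part of these markers in *Cfd* was not tested. Of 18 other coagulation and fibrinolysis genes, among them tissue factor, the vitamin K cycle and factor VIII, 10 were tested and 0 were called in either direction (median -0.10).

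Of 12 serpins and other plasma inhibitors, 10 were tested, with a median of -0.03. *Serpinc1*, which encodes antithrombin, the main inhibitor of thrombin and factor Xa, was called lower, at 711.8, 575.8 and 1019 CPM in KPF and 1669, 1152 and 1198 CPM in WPF (log2 fold change -0.80, SE 0.32, adjusted p = 0.447, edgeR). Its FPKM ratio to its target prothrombin, *F2*, chosen after both were seen, was 0.538 to 0.672 over all 6 libraries. *Itih1*, an inter-alpha-trypsin inhibitor heavy chain, was called higher, at 901.2, 495.4 and 852.5 CPM in the KPF livers and 502.8, 475.6 and 362.2 CPM in the WPF livers (log2 fold change 0.75, SE 0.32, adjusted p = 0.456, edgeR). KPF replicate 2 lay below WPF replicate 2, so the groups overlapped. Of the 3 lists' 37 tested genes together, 2 were called higher (5.41%) and 1 lower (2.7%), beside 5.83% and 3.98% of all tested genes. *Cfd*, 1 of the 2 higher calls, was tested only through KPF.

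Acute phase genes, to which fibrinogen, C3 and many complement proteins belong as a class, were counted apart from the members. Of 24 genes on that list, 23 were tested, and 4 were called higher (17.4%, against 5.83% of all tested genes) and 0 lower (against 3.98%). The higher calls were 2 with limma at either pseudocount or at a mean FPKM of at least 5, and 7 without WPF replicate 4, and the lower calls ranged from 0 to 2 over the alternatives. Without WPF replicate 4, 628 of all tested genes were called higher. An adjusted p under 0.05 was reached by 2 genes of the list with DESeq2 and by 3 with no filter. The 4 were, with their log2 fold changes, *Saa1* (2.28), *Saa2* (2.65), *Orm3* (4.89) and *Lcn2* (1.41), with adjusted p from 0.416 to 0.430 (edgeR) and a median of 0.12 over the list. *Saa1*, the serum amyloid gene, gave 17.0, 7.96 and 4.23 CPM across the KPF libraries and 1.38, 2.39 and 2.17 CPM across the WPF libraries. *Saa2*, a close copy that may share reads with it, gave 12.6, 3.27 and 1.15 CPM across the KPF libraries and 0.95, 0.98 and 0.76 CPM across the WPF libraries. KPF replicate 1 was the highest library for both. In WPF, *Saa1* was at 0.5, 1.05 and 1.03 FPKM and *Saa2* at 0.34, 0.42 and 0.36 FPKM. Both reached the mean of 1 FPKM needed for testing only through KPF, where they were high. The filter thus favoured their calls, and the share of 17.4% is not an even comparison. Their means of 2.34 and 1.29 FPKM leave both out at the minimum of 5 FPKM. *Lcn2*, which encodes the iron-siderophore carrier lipocalin 2, gave 49.5, 20.1 and 10.6 CPM across the KPF libraries and 8.47, 9.77 and 11.95 CPM across the WPF libraries. It too was highest in KPF replicate 1, and KPF replicate 3 lay below WPF replicate 4. *Orm3* rested on KPF replicate 2 (320.0 CPM against 2.69 to 12.1 CPM in the others).

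Of 18 tested liver transcription factors, 2 were called higher (11.1%, against 5.83% of all tested genes) and 0 lower, with a median log2 fold change of 0.19. *Nr1h4*, the bile acid receptor FXR, gave 215.9, 308.6 and 207.6 CPM across the KPF libraries and 136.2, 171.2 and 168.0 CPM across the WPF libraries (log2 fold change 0.62). *Esr1*, the estrogen receptor, gave 28.2, 61.1 and 33.3 CPM across the KPF libraries and 19.3, 27.8 and 24.5 CPM across the WPF libraries (log2 fold change 0.78). The groups did not overlap in CPM in either gene, but in FPKM they overlapped in both. KPF replicate 2 was the highest library in both, and the adjusted p was 0.456 for each (edgeR).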

How the data were processed

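Polyadenylated RNA from the liver of 6 dams was sequenced as paired-end reads. The submitters' processing notes name cutadapt 1.9.1, HISAT2 2.2.1, HTSeq 0.6.1 and DESeq2, and the build GRCm39. The authors deposited, per gene, read counts (raw, not normalized) and FPKM. Count divided by gene length and library total gave the deposited FPKM in 100.0% of values (tolerance 0.006), so FPKM carries no composition scaling. KPF and WPF were compared on the deposited counts with edgeR 4.0.16 (R 4.3.3; TMM, quasi-likelihood test, Benjamini-Hochberg) over 10866 genes, those averaging 1 FPKM or more across the libraries. Calls required an unadjusted p under 0.05 together with a 1.5-fold change or larger. Alternatives used DESeq2 1.42.0 and limma 3.58.1, and the fit was tested on simulated data. Gene symbols were matched for 52073 of the 56691 IDs. The 39 members and the other lists were chosen with earlier results of these data known.

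All members are named. Values per library are given for members with p under 0.05, with groups apart in CPM, or with the highest mean FPKM of their role. They are also given for called genes of the pathway, acute phase and transcription factor lists, at most 5 per list, smallest p first. Promoters are RefSeq entries of build GRCm38.p6, and transcript identities are from GENCODE transcripts. Same-group libraries were checked and differed beyond sampling noise (chi-square per gene 35.5 or more). The labels give each library as a separate sample and say nothing of litters or pooling, so p-values measure the spread between these samples. Depth (10694496 to 14496630 reads) gave at least 82 reads per member, so the spread between dams sets the error.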

Additional observations from a re-analysis of the deposited data

How the results depend on the processing

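Each result was recomputed under 14 alternatives. Of 546 combinations of member and alternative, 472 kept direction and side of the threshold, 43 changed sign, 10 lost the call and 21 gained it. No member passed an adjusted p of 0.05 in any alternative.

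Members called higher, 1 in the comparison reported, were 0 with library totals or with limma at either pseudocount and ranged from 0 to 6 with a library left out. They were 6 without WPF replicate 4 (*F11*, *C6*, *C9*, *C8a*, *Cfp* and *Pros1*) and 0 without KPF replicate 1 or WPF replicates 2 or 3. Without WPF replicate 4, 628 of all tested genes were called higher. Members called lower, also 1, were 3 with library totals and with limma at either pseudocount, 2 with DESeq2 or no filter, and 0 to 5 with a library left out, 5 without KPF replicate 3 and 0 without KPF replicates 1 or 2 or WPF replicate 4. Without KPF replicate 3, 709 of all tested genes were called lower. The median of the members ran from -0.22 to -0.01 (-0.01 without KPF replicate 2, -0.22 without WPF replicate 3).

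Genes with an adjusted p under 0.05 numbered 0, but 156 with DESeq2, 286 with no filter, and 0 to 5 with a library left out (5 without WPF replicate 4). Genes called higher (634) were 371 with library totals, 237 and 288 with limma at pseudocounts of 1 and 0.1, 1576 with no filter, 255 at a mean FPKM of at least 5, and 324 to 910 with a library left out. Genes called lower (433) were 729, 700 (limma, 0.1), 910 and 205 in the same order, and 246 to 709 with a library left out. Of the pathway lists, 1 gene passed the adjusted p with DESeq2 or no filter. Their higher calls (2) were 1 with library totals, limma or the block, and 1 to 3 with a library left out. Their lower calls (1) were 2 with limma or the block, and 0 to 3 with a library left out.

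The replicate block, on numbers 2 and 3 of both groups, is not a pairing of dams, since same-numbered libraries deviated with correlations of 0.035 and 0 from their group means. It gave 5 members higher (*F11*, *C6*, *C9*, *Cfp*, *Pros1*) and 0 lower, beside 680 and 551 of all tested genes. *F7* was not called (-0.55), and signs changed for *Mbl2* (0.068), *Cfb* (-0.001), *C8b* (0.64), *Kng2* (-0.017) and *F9* (0.13).

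Signs also changed with library totals for *Masp1* (-0.02), *Kng2* (-0.084), *Proz* (-0.14) and *F5* (-0.07), with limma at 1 and 0.1 for *Kng2* (-0.086, -0.087), *Proz* (-0.091, -0.091) and *F5* (-0.008, -0.007), and with no filter for *Kng2* (-0.04) and *Proz* (-0.037). With a library left out the ranges were -0.005 to 0.33 for *Masp1*, -0.30 to 0.12 for *Mbl1*, -0.35 to 0.073 for *C4bp*, -0.32 to 0.086 for *C3*, -0.12 to 2.02 for *C6*, -0.38 to 0.51 for *C8b*, -0.30 to 0.14 for *Kng1*, -0.13 to 0.17 for *Kng2*, -0.18 to 0.054 for *F9*, -0.11 to 0.21 for *Proz*, -0.027 to 0.33 for *F5*, -0.57 to 0.33 for *Fga*, -0.63 to 0.086 for *Fgb* and -0.29 to 0.14 for *Vtn*. The causes were not tested. Precision was limited by the spread between 3 dams a group more than by depth, each member having 82 reads or more in every library. No outlying library was tested for in groups of 3.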
